A study of Homo sapiens with 6 samples.

Results

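The human Rab genes encode small GTPases that direct membrane traffic, and they were followed here in MCF10CA1a cells, a malignant line of the MCF10A breast epithelial lineage. Members were chosen by symbol alone, as RAB followed by a number and at most a letter and a further digit, and 62 of the 26484 genes in the deposited count tables matched. The cells were grown on hydrogel dishes of 500 Pa or 8000 Pa, both carrying growth factor-reduced Matrigel at 0.14 mg/ml, in medium with horse serum, and RNA was isolated on day 5. Each stiffness had 3 libraries, which the labels call biological triplicates of cytosolic RNA, and all 6 libraries came from 1 cell line. Nothing in the sources used here says that same-numbered libraries were grown on the same day.

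A Rab protein switches between a GTP-bound form, which sits on a membrane through its prenyl tails and recruits effectors, and a GDP-bound form, which can leave the membrane for the cytosol. Exchange factors load GTP and GTPase-activating proteins end the cycle. Rabs mark stretches of the route between endoplasmic reticulum, Golgi, endosomes, lysosomes and plasma membrane, and several can share a stretch. Secretory Rabs have been studied in tumour cells because RAB27A, RAB27B, RAB11A and RAB35 take part in the release of exosomes.

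Library totals ran from 8305601 to 18779742 counts, and a gene with 3 counts had 0.168 to 0.429 CPM across the libraries, where CPM is the count relative to the library's total, scaled by the trimmed mean of M-values (TMM). On the first principal component (51.2% of the variance) 8000 Pa replicate 1 scored -59.2, and the libraries numbered 3 scored 44.9 on the soft and 33.3 on the stiff gel. The epithelial markers summed to 12870 to 23174 CPM at 500 Pa and 10023 to 19513 CPM at 8000 Pa, with 0 of 7 called. Of 6 endothelial markers, PECAM1 and CDH5 were called higher at 8000 Pa in the paired fit described below. The list summed to 92.7 to 149 CPM against 208 to 252 CPM, of which PECAM1 alone had 89.2 to 146 and 204 to 241 CPM. TEK and CLDN5 were at 0 in every library, and VWF and KDR had 7 and 9 counts over the 6 libraries. The leukocyte list summed to 21.9 to 47.4 CPM at 500 Pa and 19.9 to 43.8 CPM at 8000 Pa, carried by CD68 and CD14, with PTPRC and CD3E at 0. The fibroblast list summed to 0.950 to 1.86 CPM against 0.959 to 4.65 CPM, with COL1A2, COL3A1 and LUM at 0, and 0 genes of either list were called. In bulk RNA, fewer cells of a type and less RNA per cell cannot be told apart, and the part of these markers in the Rab values was not tested.

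Several Rabs come as close copies whose proteins are nearly the same and whose genes are written in different letters. The stretch around the phosphate-binding loop, the P-loop that holds GTP or GDP, is shown for copies whose levels are compared below. RAB25, a more distant relative of RAB11A, is shown beside them. The sequences are coding strand, 5′ to 3′, from the longest complete coding sequence of each gene in GENCODE 29 (GRCh38), and capitals mark the 8 codons of the loop.
RAB1A: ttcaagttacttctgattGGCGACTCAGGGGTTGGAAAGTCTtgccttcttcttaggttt
RAB1B: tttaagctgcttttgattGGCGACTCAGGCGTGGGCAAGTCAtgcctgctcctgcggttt
RAB5A: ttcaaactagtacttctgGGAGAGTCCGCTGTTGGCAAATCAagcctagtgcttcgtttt
RAB5C: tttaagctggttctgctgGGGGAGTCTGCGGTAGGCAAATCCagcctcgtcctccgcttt
RAB11A: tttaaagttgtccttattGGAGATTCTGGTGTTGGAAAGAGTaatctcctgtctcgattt
RAB11B: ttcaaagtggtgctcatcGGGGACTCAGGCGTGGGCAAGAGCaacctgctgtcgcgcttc
RAB25: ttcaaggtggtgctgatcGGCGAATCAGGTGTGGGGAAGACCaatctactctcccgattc

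Within these 60 bases RAB1A and RAB1B differed at 12 bases and at 0 residues, and RAB11A and RAB11B at 17 bases and again 0 residues. RAB25, the epithelial member of the RAB11 family, differed from RAB11A at 17 bases and 2 residues. Over the whole aligned coding sequence, RAB1A and RAB1B were 76.4% identical in bases and 93.5% in protein, RAB5A and RAB5C 74.4% and 87.4%, and RAB11A and RAB11B 73.7% and 92.1%. RAB11A and RAB25 were farther apart, at 67.5% in bases and 63.5% in protein. The copies also differed in base composition. GC content of the window was 43.3% in RAB1A and 53.3% in RAB1B, 45.0% in RAB5A and 56.7% in RAB5C, and 36.7% in RAB11A against 60.0% in RAB11B and 53.3% in RAB25. The longest transcripts showed the same split, at 38.3% GC for RAB1A and 61.1% for RAB1B, and at 37.2% for RAB11A and 63.5% for RAB11B. How levels varied with GC content between libraries is given after the comparisons.

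The cells expressed most of the family. Of the 62 genes, 49 had enough counts to be tested, among 11517 genes tested in all. A further 8 had at least 1 count but were not tested, with RAB3B, a neuronal and secretory Rab, the most abundant of them at 49 counts over 6 libraries. RAB39A, RAB39B, RAB3C, RAB42 and RAB4B had 0 counts in every library. RAB4B, and RAB43 among the genes that were not tested, share 36.8% and 79.3% of their exon bases with annotated read-through genes that the tables list separately, so their counts are uncertain. All Rab genes together took 0.282%, 0.304% and 0.292% of the counts at 500 Pa and 0.318%, 0.311% and 0.275% at 8000 Pa, and the groups overlapped.

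**Figure D1:**
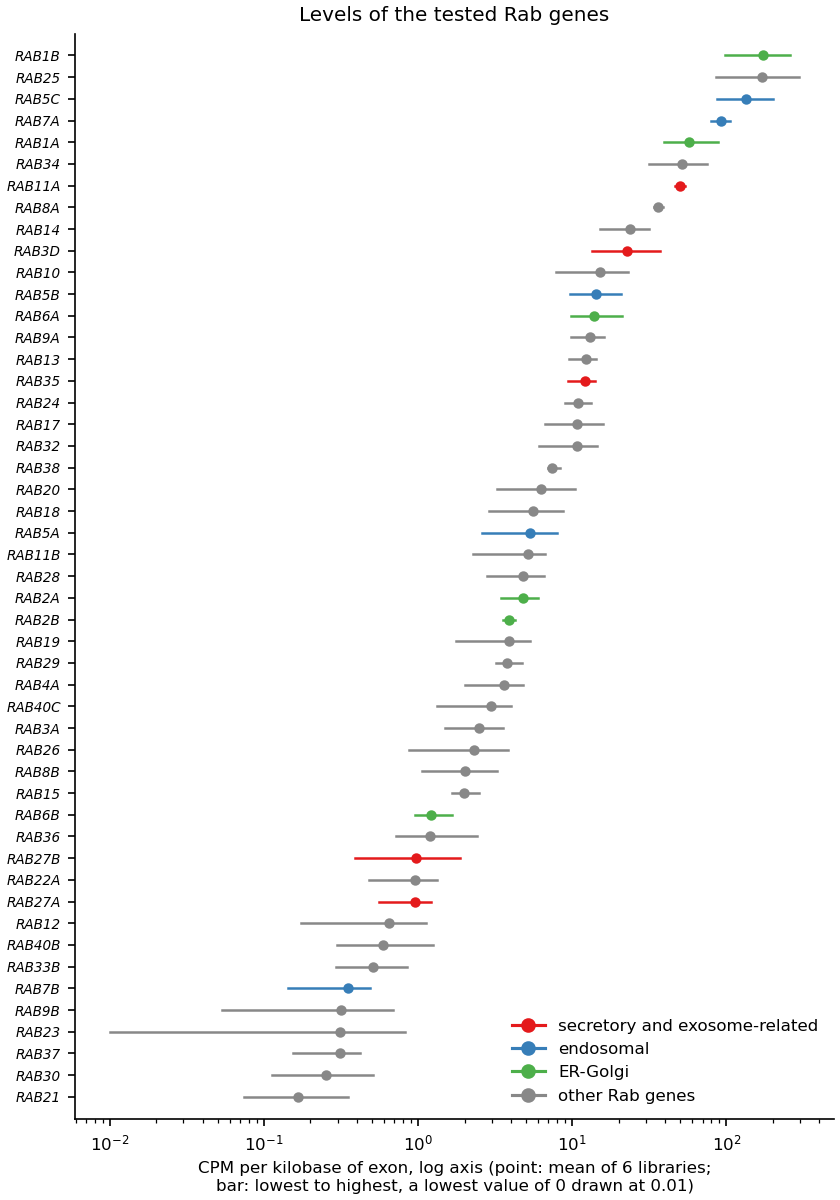
Level of each tested Rab gene in CPM per kilobase of exon on a log axis, with the mean of the 6 libraries as a point, the lowest to the highest library as a bar and colours for the 3 groups of interest. RAB1B, RAB25 and RAB5C stand at the top, RAB27A and RAB27B near 1 and RAB21 at the bottom, and the lowest library of RAB23, at 0, is drawn at 0.01.

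Per kilobase of exon, so that genes of different length can be compared, the highest Rab transcripts were RAB1B at 174 ± 53.5, RAB25 at 171 ± 72.3 and RAB5C at 135 ± 40.6 CPM per kilobase (mean ± SD over 6 libraries). The mean ± SD ranges of these 3 neighbours overlapped. Genes of the same library share its shifts, so this SD does not test their order, here or in the comparisons below. With the longest transcript as the length RAB25 came first, then RAB5C and RAB1B. RAB1B runs traffic from the endoplasmic reticulum to the Golgi, RAB25 recycles cargo to the apical surface and RAB5C serves early endosomes. RAB7A, the late endosome Rab, followed at 92.1 ± 9.90, RAB1A at 57.6 ± 17.9, RAB34 at 51.2 ± 15.1 and RAB11A at 50.1 ± 3.59, and the last 3 again lay within their spread. The 6 Rabs with the most counts (RAB5C, RAB1B, RAB25, RAB11A, RAB7A and RAB1A) held 53.6% to 64.5% of all Rab counts in a library. Among the exosome-related Rabs, RAB27A stood at 0.954 ± 0.255 and RAB27B at 0.963 ± 0.581 CPM per kilobase, far under RAB11A, and they did not differ from each other beyond their spread.

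No Rab gene was called between the stiffnesses. The edgeR quasi-likelihood test with stiffness alone called 0 of 49 Rab genes at an FDR of 0.05, beside 0 of 11517 genes tested (0%). With the replicate number as a block, termed the paired fit, it also called 0 of 49, beside 61 of all genes (0.53%). The smallest adjusted p of a Rab gene in the paired edgeR fit was 0.192, for RAB25. At an unadjusted p under 0.05 stood 1 Rab gene without the block (RAB9B, 2.04% of 49, against 2.45% of all genes) and 3 with it (RAB25, RAB11B and RAB9B, 6.12%, against 10.6%). DESeq2 and limma-voom called 0 Rab genes as well, with 0 and 1 at an unadjusted p under 0.05 without the block and 3 in DESeq2 with it. For 4 Rab genes the CPM values of the soft and the stiff libraries did not overlap (8.16%, against 6.87% of all genes). RAB11B, RAB3A and RAB9B were the ones lower at 8000 Pa, where the share over all genes was 2.85%, and RAB15 the one higher, where it was 4.02%.

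Fitted changes were small for most of the family. Of the 49 genes, 43 changed less than 1.5-fold either way, or 87.8% against 88.1% of all genes. Log2 fold changes of 8000 Pa over 500 Pa ran from -1.41 for RAB9B to 0.77 for RAB30, with 22 above 0, 27 below and a median of -0.02, where the median of all genes was 0.01. The 95% interval lay within a 2-fold change for 21 of the 49 without the block and for 33 in the paired fit. For the remaining genes, a 2-fold change lay within the interval of the fit concerned. The paired-fit intervals, SEs and p-values rest on a variance shared over genes. The intervals and SEs can therefore understate the spread of a single gene's pairs, and the p-values can be too small.

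**Figure D2:**
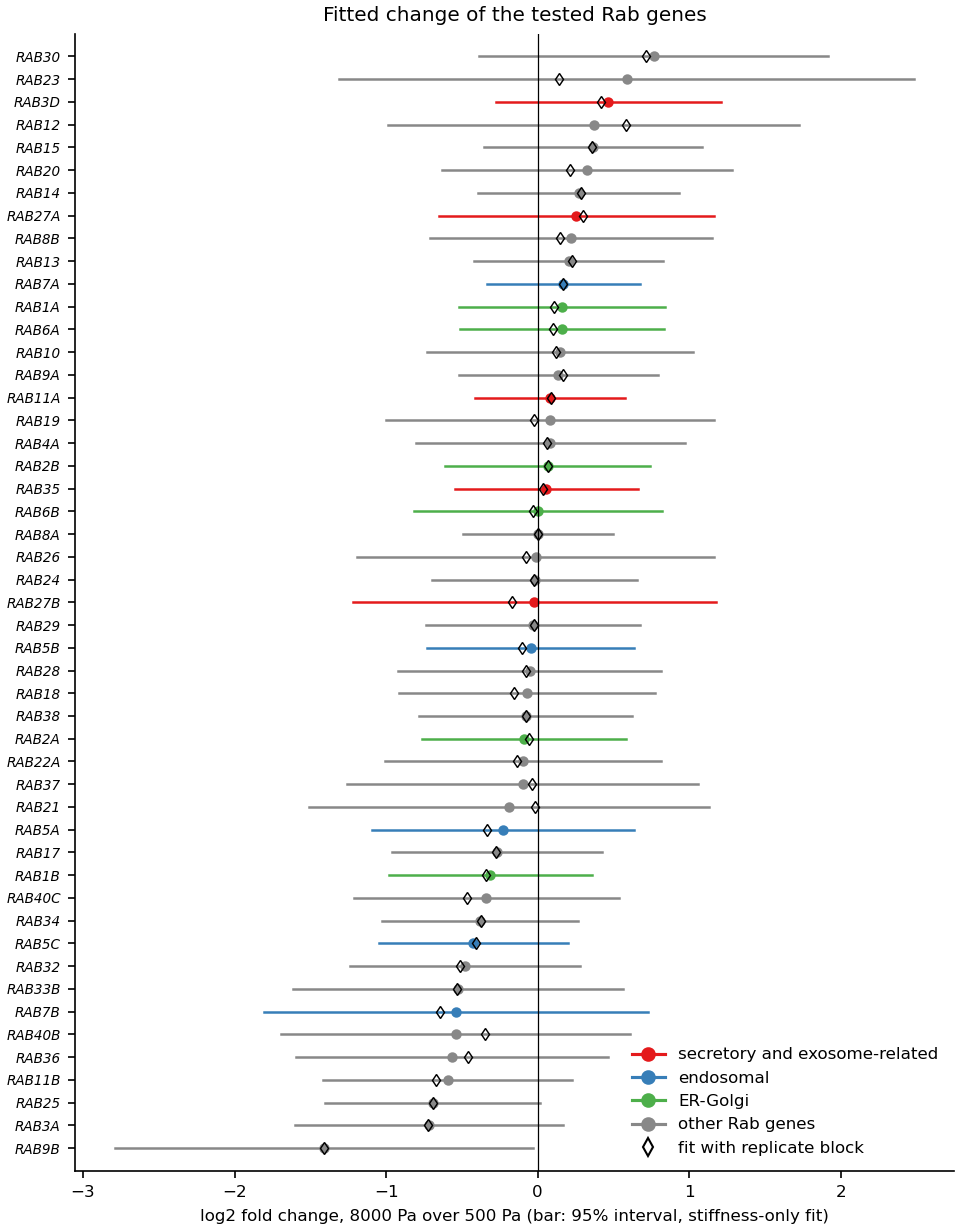
Log2 fold change of 8000 Pa over 500 Pa for each tested Rab gene, with filled points and 95% intervals from the fit with stiffness alone and open diamonds from the paired fit. The interval crosses 0 for every gene but RAB9B, and both estimates of most genes lie within 1 log2 unit of 0.

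The secretory and exosome-related Rabs had a small median change, and for some members a 2-fold rise lay within the interval. All 5 were tested and 0 called, 4 had a log2 fold change above 0, the median was 0.08, and the 5 summed to 380, 437 and 444 CPM at 500 Pa and 424, 537 and 456 CPM at 8000 Pa. Most of that sum was RAB11A. The medians of the 5 in the 3 same-numbered pairs were 0.18, 0.13 and 0.17, where the log2 ratios were taken after adding 0.5 CPM, and the fit without 8000 Pa replicate 1 gave 0.22. With an offset for GC content the median was 0.23, and 0.24 with the block as well. RAB11A, which runs the recycling endosome, had 264, 263 and 301 CPM at 500 Pa and 300, 307 and 272 CPM at 8000 Pa. The 6 values overlapped and spanned a narrow range, and the log2 fold change was 0.08 (SE 0.23, 95% interval -0.41 to 0.58). RAB35, which acts in fast endocytic recycling, had 42.9, 51.8 and 48.4 CPM against 37.7, 56.8 and 54.4 CPM, with both the lowest and the highest library on the stiff gels.

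RAB27A and RAB27B, which dock multivesicular bodies and secretory granules at the plasma membrane, were rare. RAB27A had 3.13, 6.71 and 4.86 CPM at 500 Pa and 6.07, 4.54 and 6.78 CPM at 8000 Pa (4.90 ± 1.79 against 5.80 ± 1.14, SD, n = 3 each), with a log2 fold change of 0.26 and an interval of -0.65 to 1.16. RAB27B had 11.1, 4.25 and 6.29 CPM against 13.8, 4.65 and 2.89 CPM. Both replicate 1 libraries were the high ones for RAB27B, its fold change was -0.02 with an interval of -1.22 to 1.17, and without 8000 Pa replicate 1 it was -0.95. A 2-fold rise of either gene lay within these intervals. In the paired fit the interval was -0.47 to 1.07 for RAB27A, which still held a 2-fold rise, and -0.88 to 0.54 for RAB27B, which held neither a 2-fold rise nor a 2-fold fall. These values rested on 78 to 254 counts for the 2 genes together in a library.

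RAB3D, a Rab of secretory granules in exocrine cells, had the widest difference of the 5. It had 59.0, 111 and 83.2 CPM at 500 Pa and 66.8, 164 and 120 CPM at 8000 Pa, or 84.5 ± 26.2 against 117 ± 48.5 CPM. The groups overlapped, because both replicate 1 libraries were low. Within each numbered pair the stiff library was the higher one (log2 ratios 0.18, 0.55 and 0.53, 3 of 3 pairs). The share of all genes with such agreement between pairs is not given here. The log2 fold change was 0.47 (interval -0.28 to 1.21), and in the paired edgeR fit 0.42 (SE 0.23, adjusted p = 0.531), so RAB3D did not pass. Without 8000 Pa replicate 2 the change was 0.15, and without 500 Pa replicate 1 it was 0.27. Without 8000 Pa replicate 1 it was 0.75, and without 500 Pa replicate 2 it was 0.72. The gene lies at chr19:11322046-11346270 on the minus strand (GRCh38), and 24.9% of its exon bases are also covered by other annotated genes.

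**Figure D3:**
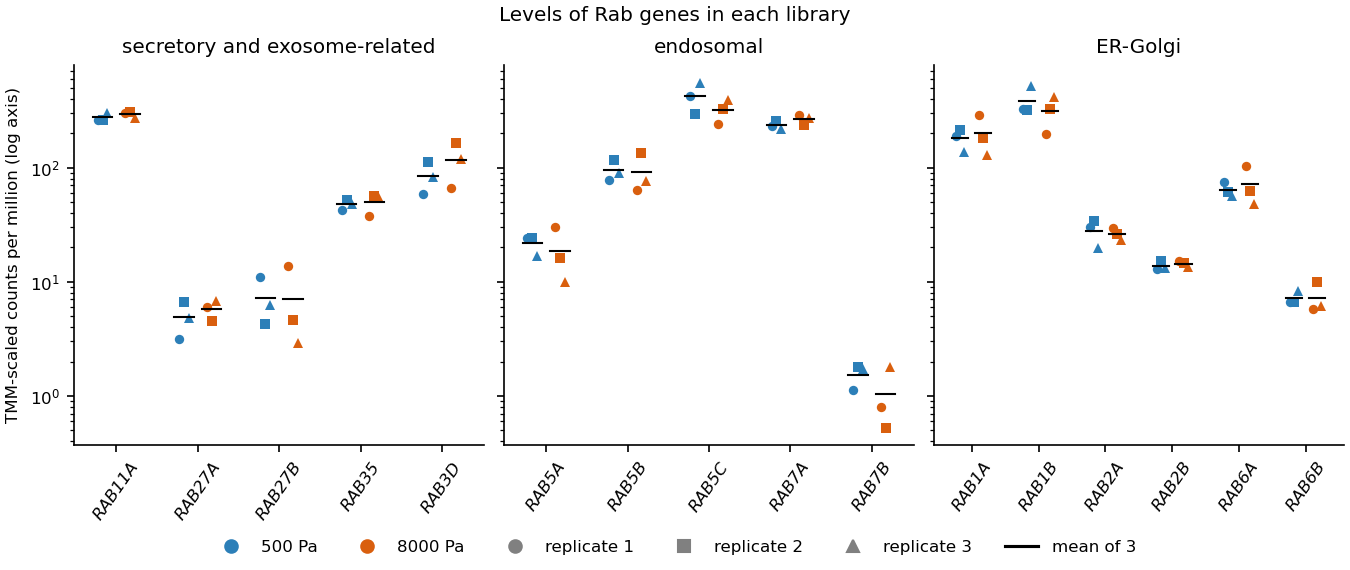
TMM-scaled CPM on a log axis for the secretory, endosomal and ER-Golgi Rabs that were tested, with blue for 500 Pa, orange for 8000 Pa, a marker shape for each replicate number and a bar for the mean of 3. In each gene shown the points of the 2 colours overlap, and replicate 1 and replicate 3 often lie on opposite sides of the mean.

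The endosomal Rabs had values below 0 more often than above. All 5 were tested, 0 were called, 1 had a fold change above 0, and the median was -0.23, or -0.33 in the paired fit, with -0.30, -0.13 and -0.22 in the pairs. Without 8000 Pa replicate 3 the median was 0.077, and in the paired fit without replicate 3 it was -0.082. RAB5C, the most abundant early endosome Rab, had 425, 297 and 557 CPM at 500 Pa and 240, 323 and 390 CPM at 8000 Pa. The groups overlapped at 427 ± 130 against 318 ± 75.4 CPM, and the log2 fold change was -0.42 (interval -1.05 to 0.20, edgeR adjusted p = 0.570 in the paired fit). Of the exon bases of RAB5C, 28.8% lie in a second annotated gene on its strand, which the count tables do not list.

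RAB5A, which shares the early endosome with RAB5C, had 24.3, 24.4 and 16.9 CPM at 500 Pa and 30.0, 16.2 and 9.87 CPM at 8000 Pa. The stiff libraries were both the highest and the lowest, and the interval of the log2 fold change ran from -1.09 to 0.64. RAB5B had 78.3, 116 and 90.0 CPM against 63.3, 136 and 77.0 CPM, the same arrangement, with an interval of -0.73 to 0.64. RAB7A, which moves late endosomes to lysosomes, varied least for its level among the endosomal Rabs, at 232, 257 and 218 CPM against 288, 234 and 272 CPM. Its log2 fold change was 0.17 (interval -0.33 to 0.67). RAB7B, a rare relative, had 1.12, 1.79 and 1.71 CPM against 0.799, 0.528 and 1.79 CPM, and the interval of -1.80 to 0.73 reached past 2-fold on the lower side.

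The ER-Golgi Rabs were centred on 0, with 6 of 7 tested, 0 called, 4 above 0 and a median of 0.04. That median was -0.13 without 8000 Pa replicate 1, while the summed levels were 641, 648 and 751 CPM at 500 Pa and 643, 619 and 634 CPM at 8000 Pa. RAB1A had 190, 214 and 136 CPM at 500 Pa and 292, 182 and 130 CPM at 8000 Pa, and the log2 fold change of RAB1A was 0.16, and -0.21 once 8000 Pa replicate 1 was left out. Without 8000 Pa replicate 3 the change of RAB1A was 0.44. Its copy RAB1B had the opposite arrangement, at 326, 317 and 517 CPM against 197, 323 and 413 CPM. There 8000 Pa replicate 1 was the lowest library, the log2 fold change was -0.31 (interval -0.98 to 0.36), and with an offset for GC content in the paired fit it was -0.05. Transcripts annotated on the opposite strand cover 42.6% of the exon bases of RAB1B, and the strand used in counting is not given in the sources used here.

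RAB6A, a Golgi Rab, had 74.4, 60.8 and 56.7 CPM at 500 Pa and 104, 62.5 and 48.3 CPM at 8000 Pa, and again 8000 Pa replicate 1 was highest. RAB2B, on the same route as RAB1A, had 12.9, 15.1 and 13.3 CPM against 15.3, 14.5 and 13.5 CPM, all within a narrow range. RAB2A had 30.2, 33.9 and 19.6 CPM against 29.4, 26.0 and 23.3 CPM. For RAB6B the values were 6.71, 6.71 and 8.29 CPM against 5.75, 9.93 and 6.08 CPM, with a log2 fold change of 0.01. RAB6C had 10 counts over the 6 libraries, was not tested, and is 96.3% identical to RAB6A in coding bases, so its few counts may not be separable from those of RAB6A.

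Among the other Rabs, RAB25 had the smallest p of the family in the paired fit and did not pass the adjustment. RAB25 lies at chr1:156061160-156070514 on the plus strand (GRCh38), on a chromosome arm often gained in breast cancer. It had 329, 242 and 505 CPM at 500 Pa and 144, 225 and 297 CPM at 8000 Pa, or 359 ± 134 against 222 ± 76.2 CPM. The groups overlapped, since 297 lies above 242, and each stiff library was below the soft library of the same number (log2 ratios -1.19, -0.10 and -0.77). That agreement adds no support, because RAB25 is described here for its small p in the paired fit. The log2 fold change was -0.69 in both fits, with an interval of -1.40 to 0.02 without the block (adjusted p = 1.00 by edgeR) and of -1.15 to -0.23 with it (SE 0.23, adjusted p = 0.192 by edgeR). Leaving out 500 Pa replicate 3 gave -0.32, and leaving out 8000 Pa replicate 1 gave -0.46. Leaving out 500 Pa replicate 2 gave -0.91, and leaving out 8000 Pa replicate 3 gave -0.95.

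RAB11B, the third member of that family, had 13.3, 16.4 and 16.1 CPM at 500 Pa and 5.59, 13.1 and 11.8 CPM at 8000 Pa, with no overlap. Its log2 fold change was -0.59 (interval -1.41 to 0.23), and in the paired edgeR fit -0.67 (adjusted p = 0.396). The library that stood farthest down was 8000 Pa replicate 1, and the change was -0.30 without it and -0.32 with the GC offset in the paired fit. Without 8000 Pa replicate 2 the change was -0.82. RAB3A, a Rab of synaptic and secretory vesicles, had 6.43, 4.36 and 6.15 CPM against 2.72, 4.23 and 3.39 CPM, a non-overlap by a narrow margin, with an edgeR adjusted p of 0.564 in the paired fit. RAB15, an endosomal recycling Rab, had 8.66, 8.27 and 9.29 CPM against 10.6, 10.7 and 12.5 CPM. Here the libraries within each gel were close together, and the log2 fold change was 0.36 with an interval of -0.35 to 1.08.

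RAB9B, which like RAB9A acts between late endosomes and the trans-Golgi, was measured on few reads. It had 22, 13 and 18 counts at 500 Pa and 13, 6 and 2 counts at 8000 Pa, or 1.23, 1.45 and 2.57 CPM against 1.04, 0.634 and 0.199 CPM. The log2 fold change was -1.41 (interval -2.79 to -0.03, adjusted p = 1.00 by edgeR), the largest fitted change of the family, and -0.60 in the paired fit without replicate 3. Without replicate 1 the paired fit gave -2.21. RAB30, a Golgi Rab, had 1.34, 2.24 and 3.14 CPM at 500 Pa and 5.99, 2.11 and 2.99 CPM at 8000 Pa. Its change of 0.77 came with 1 high library, and without 8000 Pa replicate 1 it was 0.23. Without 500 Pa replicate 3 it was 1.15.

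RAB14, which acts between Golgi and endosomes, had 88.2, 125 and 65.2 CPM at 500 Pa and 135, 123 and 78.7 CPM at 8000 Pa, with a log2 fold change of 0.27, and 0.12 without 8000 Pa replicate 1, 0.13 without 500 Pa replicate 3, 0.54 without 500 Pa replicate 2 and 0.51 without 8000 Pa replicate 3. RAB34, a Golgi and cilium Rab, had 196, 134 and 247 CPM against 104, 158 and 181 CPM, with -0.38, and -0.12 without 500 Pa replicate 3, -0.18 without 8000 Pa replicate 1, -0.59 without 500 Pa replicate 2 and -0.09 with the GC offset in the paired fit. RAB8A, which delivers membrane to the surface and the cilium, was the most even of the abundant members, at 175 to 201 CPM in all 6 libraries and a log2 fold change of 0.00 (interval -0.49 to 0.50). The group medians of the remaining Rabs were 0.12 for recycling and plasma membrane delivery (10 tested), -0.10 for early endosome (3), -0.10 for regulated exocytosis (3), -0.08 for late endosome and lysosome-related organelles (5), -0.02 for other Golgi, ER and autophagy (5) and -0.34 for cilium and other (7). None of these groups held a called gene (0 of 33). With the GC offset and no block the medians, in the same order of groups, were 0.07, -0.23, 0.06, -0.20, 0.09 and -0.11. With single libraries left out, the medians of cilium and other ran from -0.45 to 0.097 (0.097 without 500 Pa replicate 1 and 0.064 without 500 Pa replicate 2), and of early endosome from -0.31 to 0.47 (0.47 without 500 Pa replicate 2 and 0.24 without 8000 Pa replicate 3). Those of recycling and delivery, regulated exocytosis, and other Golgi, ER and autophagy also crossed 0 when single libraries were left out.

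The spread of Rab levels between libraries followed base composition. Across the 49 genes, which are not independent replicates and share each library's depth and composition, the deviation of 8000 Pa replicate 1 from the mean of the 6 libraries had a Spearman rho of -0.87 with transcript GC content. It was 0.65 in 8000 Pa replicate 3, 0.48 in 500 Pa replicate 3 and between -0.08 and 0.04 in the other libraries. Over the 11008 tested genes with a GC value the same measure was -0.77, 0.69 and 0.54 for those 3 libraries, so the pattern is that of the whole table. Within pairs, the log2 ratio of Rab genes had a rho with GC content of -0.78 in replicate 1, 0.14 in replicate 2 and 0.10 in replicate 3. The 22 Rab genes of at least 50% GC had a median ratio of -0.51 in pair 1, with 4 above 0, and the 27 of lower GC a median of 0.32, with 22 above 0. In pair 2 those medians were 0.03 and -0.07, and in pair 3 -0.28 and -0.15.

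**Figure D4:**
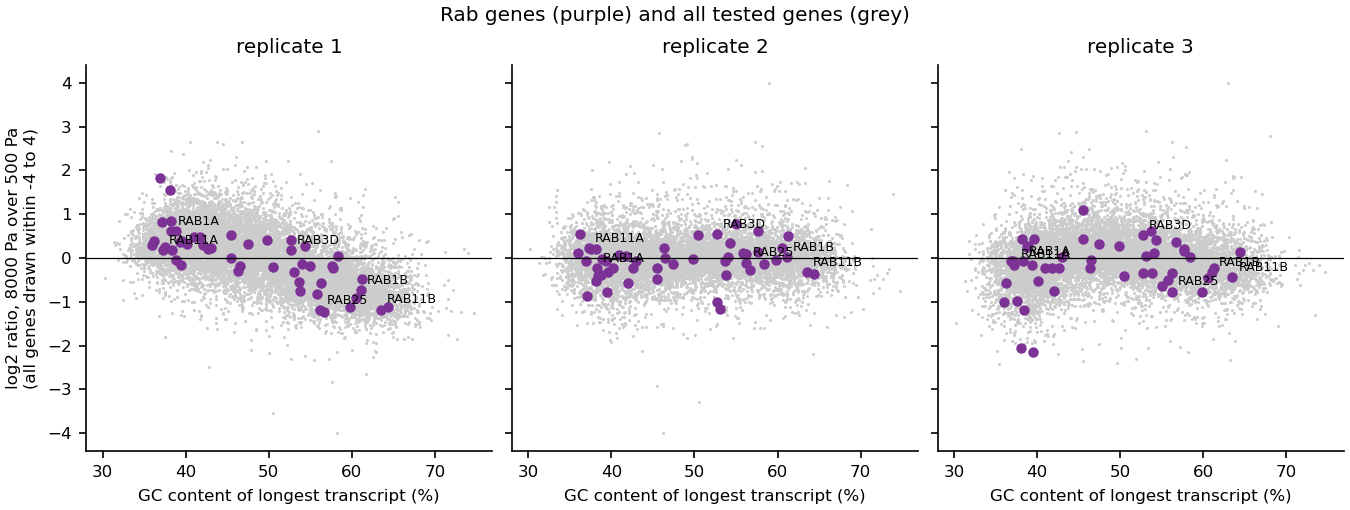
Log2 ratio of 8000 Pa over 500 Pa CPM against GC content of the longest transcript, 1 panel for each replicate number, with Rab genes in purple and all tested genes in grey. The points slope down in replicate 1 (rho -0.78 for Rab genes) and not in replicates 2 and 3 (rho 0.14 and 0.10).

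The make-up of families of related Rabs also shifted between libraries. These families were chosen after their values were seen. RAB1B gave 63.1%, 59.8% and 79.2% of the RAB1A and RAB1B counts at 500 Pa and 40.3%, 64.0% and 76.1% at 8000 Pa, with 8000 Pa replicate 1 below all others. RAB5C gave 80.6%, 67.9% and 83.9% of the RAB5 counts against 72.0%, 68.1% and 81.8%. RAB25 gave 54.3%, 46.4% and 61.4% of the RAB11A, RAB11B and RAB25 counts against 32.1%, 41.3% and 51.2%. That share was below its soft partner in 3 of 3 pairs, and the groups overlapped. The agreement of the pairs adds no support, because RAB25 already stood out by its small p in the paired fit. In each of these 3 families the replicate 3 library held the highest share within its gel. RAB27B gave 78.0%, 38.8% and 56.4% of the RAB27A and RAB27B counts against 69.5%, 50.6% and 29.9%. RAB27A and RAB27B are 75.0% identical in protein. With the GC offset in the paired edgeR fit the log2 fold change of RAB25 was -0.53 (adjusted p = 0.195).

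**Figure D5:**
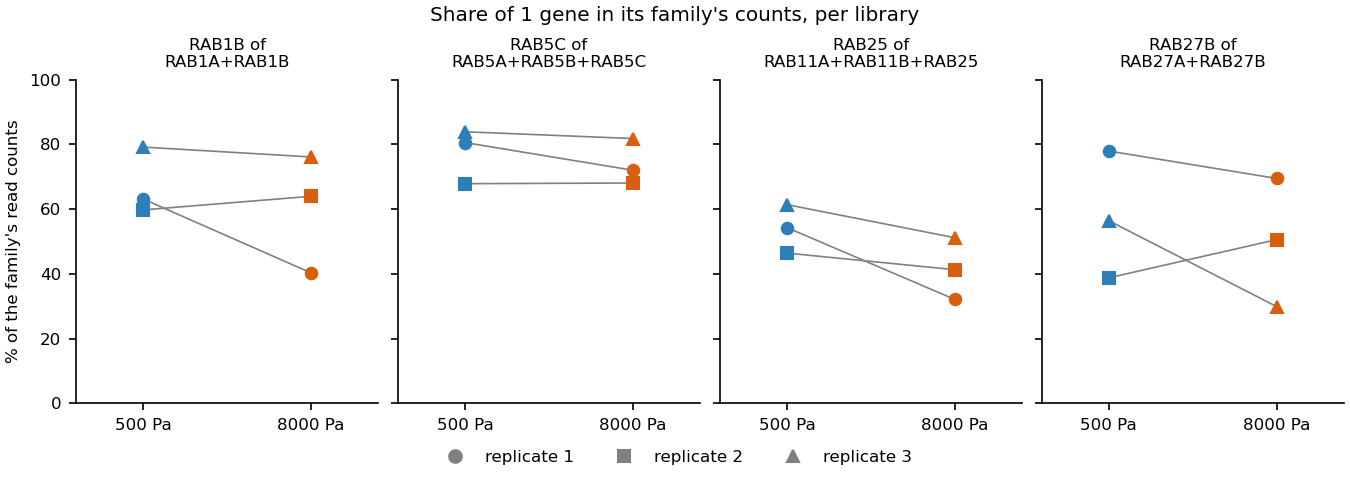
Share of 1 gene in the summed counts of its family, in percent, for each library, with a line joining libraries of the same replicate number. The RAB25 share falls along each of the 3 lines, while the RAB1B, RAB5C and RAB27B shares have lines in both directions. The rise of RAB5C, in replicate 2, is only from 67.9% to 68.1%.

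The genes that load, unload, prenylate and read Rabs were followed from lists of 8 to 43 genes, of which 140 genes were tested. With stiffness alone 0 of the 140 were called in either direction. In the paired fit 1 was, where 61 of all genes were called in either direction (0.53%) and 30 of them higher (0.26%). At an unadjusted p under 0.05 stood 5 without the block (3.57%, against 2.45% of all genes) and 18 with it (12.9%, against 10.6%). Prenylation and recycling factors had a median of -0.22 (7 tested, 2 above 0), exchange factors 0.13 (34 tested, 21 above 0), GTPase-activating proteins 0.07 (30 tested, 17 above 0), effectors 0.13 (35 tested, 23 above 0) and exosome and multivesicular body machinery -0.05 (34 tested, 12 above 0).

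DENND2D, an exchange factor of the DENN family, was the gene called. It had 17.0, 12.3 and 22.0 CPM at 500 Pa and 30.4, 39.2 and 33.2 CPM at 8000 Pa, or 17.1 ± 4.86 against 34.2 ± 4.51 CPM (SD, n = 3 each). The groups did not overlap and each pair was higher on the stiff gel. Neither adds support, because DENND2D was picked for passing on these same values. Non-overlap in that direction held for 4.02% of all genes. In the paired edgeR fit DENND2D rose by a log2 fold change of 1.02 (SE 0.27, adjusted p = 0.0291), and with stiffness alone the change was 1.00 (adjusted p = 1.00). The paired SE and p rest on a variance shared over genes, so both can be too small for the spread of its pairs. DENND2D did not pass in paired DESeq2 (adjusted p = 0.109), nor in paired edgeR without replicate 2 (0.72, adjusted p = 0.333) or replicate 3 (1.29, adjusted p = 0.289), and it passed without replicate 1 (adjusted p = 0.00650). DENND2D lies at chr1:111187174-111204535 on the minus strand (GRCh38).

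In the other lists genes of smallest p in the paired fit are given as values. RABGGTA, a subunit of the Rab prenyltransferase, had 98.6 ± 41.8 CPM at 500 Pa and 72.3 ± 26.7 CPM at 8000 Pa. The catalytic RAB3 GTPase-activating subunit RAB3GAP1 had 23.6 ± 9.64 against 36.3 ± 10.2 CPM, and TBC1D14 11.3 ± 4.21 against 18.05 ± 2.68 CPM. Among effectors, both named genes read RAB27. SYTL2 had 3.92 ± 1.17 against 8.62 ± 3.93 CPM (log2 fold change 1.12, adjusted p = 0.199 in the paired edgeR fit), and UNC13D, which primes granules for release, 49.6 ± 2.11 against 31.2 ± 8.42 CPM (-0.70, adjusted p = 0.204 in the paired edgeR fit). The 2 effectors pointed in opposite directions. Their groups did not overlap, which adds no support because both were picked for a small p. Of the 35 tested effectors, 4 were higher at 8000 Pa without overlap and 1 was lower, where the shares over all genes were 4.02% and 2.85%. In the exosome list VPS28, an ESCRT-I subunit, had 249 ± 118 against 145 ± 63.3 CPM (-0.77, adjusted p = 0.1096 in the paired edgeR fit), and it was called lower there without replicate 2 (-1.14, adjusted p = 0.0301). Its change was -0.41 in the paired edgeR fit without replicate 1 (adjusted p = 0.895), -0.39 with the GC offset and block (adjusted p = 0.347), and -0.32 with stiffness alone without 500 Pa replicate 3. The tetraspanin CD81 had 31.8 ± 12.5 against 21.8 ± 8.46 CPM.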

How the data were processed

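For each of the 6 libraries the authors deposited raw read counts for 26484 gene symbols and a TMM-scaled log2 value for part of them, per the file headers. Per the submitters' processing notes, HISAT2 2.1.2, HTSeq 0.11.4, limma and DESeq2 were used with GRCh38. The sources used here do not give strandedness, RNA selection, annotation release or the treatment of reads that match several places. For 33 Rab genes the deposited log2 values differed by at most 0.0141 from TMM log2 CPM computed here from the counts.

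The counts were tested with edgeR 4.0.16 (R 4.3.3): filterByExpr (minimum count 10, minimum total 15), TMM scaling, the quasi-likelihood F test on stiffness, and Benjamini-Hochberg adjustment over all 11517 genes at an FDR of 0.05. The alternatives were a replicate block, DESeq2 1.42.0, limma-voom (limma 3.58.1), other scalings and filters, loess offsets for GC content and length (span 0.5), and leaving out libraries. Deviations from the group means correlated at 0.431, 0.199 and 0.553 between same-numbered libraries, each above 0.1, so the numbers were taken to pair the libraries. This rests on the labels' numbers and that check, not on a stated shared day. 500 Pa replicate 2 with 8000 Pa replicate 1 reached 0.216. No 2 libraries agreed within sampling noise (chi-square per degree of freedom 11.0 or more). The test steps were tested on simulated data.

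Coordinates, exon lengths, GC content (95.6% of tested genes, 62 of 62 Rab genes) and coding sequences came from GENCODE 29, matched by symbol. Members and lists were chosen with earlier results of these data known. Values in every library are given for the Rabs of the 3 groups of interest, the 4 members of smallest p in each direction in both fits, the 6 of highest level per kilobase and those whose groups did not overlap. RAB8A was added after its values were seen. From each list of pathway genes the called members or, failing these, the 2 of smallest p are given, except 1 gene that is not reported here. Intervals have 95% confidence. Counting limits cover counting error only.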

Additional observations from a re-analysis of the deposited data

How the results depend on the processing

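Rab genes called numbered 0 under each of the 21 alternatives. The number of all genes called, 0 with stiffness alone, was 61 with the replicate block, 58 with the block and a GC offset, 58 with the block and length and GC offsets, 7 in DESeq2, 42 in DESeq2 with the block and 8 without a filter, 0 to 1 with a library left out, and 38, 81 and 12 in the paired fit without replicate 1, 2 and 3. Called pathway genes numbered 1 with the replicate block, 1 with GC and 1 with length and GC offsets beside it, and 0 to 1 with a library or pair left out. The paired fit changed no Rab call. The secretory median of 0.08 was 0.23 with the GC offset, 0.24 with GC offset and block, 0.25 with length and GC offsets, 0.23 with these and the block, 0.12 at 50 counts or more, 0.26 with library size alone, 0.063 to 0.22 with a library left out, and 0.018 to 0.26 with a pair left out (0.056 without replicate 1). The endosomal median of -0.23 was -0.33 with the replicate block, -0.35 in DESeq2 with the block, -0.36 in limma-voom, -0.093 at 50 counts or more, -0.016 with library size alone, -0.26 to 0.077 with a library left out, and -0.082 in the paired fit without replicate 3. The ER-Golgi median of 0.04 was 0.20 with library size alone and -0.13 to 0.13 with a library left out, and 0.18 in the paired fit without replicate 3. Library size alone moved the median of all genes to 0.17. Of 33 named genes, 20 kept their sign in every alternative run and 13 had the other sign in at least 1, in 51 of 687 fits. The causes were not tested. At 3 replicates a gel and this depth, a 2-fold change lay within the 95% interval for 28 of the 49 Rab genes without the block.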
